A study of Arabidopsis thaliana with 25 samples.

Results

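The roots of phf1 and wt (Col-0) Arabidopsis plants grown in medium P soil were compared gene by gene. The comparison rests on 6 of the 25 root libraries of the study, 3 from phf1 and 3 from Col-0, chosen by genotype and P regime alone, and 17690 of the 27206 genes in the deposited table had enough counts to be tested. Plants of Col-0, of phf1 and of the double mutant phr1 phl1 were raised in soil taken from field plots that had received different amounts of phosphorus, giving low P, medium P and high P regimes, with a further regime in which phosphate was added to low P pots. Both mutants are in the Col-0 background. The phf1 group here held plants of the mutant allele in medium P soil and the Col-0 group held plants of the unmodified accession in the same regime, with no phosphate added to either. All plants were 8 weeks old and grew in a greenhouse under short days of 6 h light and 18 h dark. By the study's methods each library came from the root system of a plant in its own pot, so the libraries of a group are separate plants.

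PHF1 (phosphate transporter traffic facilitator 1) is a protein of the endoplasmic reticulum (ER), related to SEC12, that is needed for PHT1 phosphate transporters to leave the ER and reach the plasma membrane. Plants without it take up less phosphate, and their cells switch on part of the phosphate starvation response (PSR), the programme under PHR1 and PHL1 that raises transporters, phosphatases, lipid remodelling enzymes and the regulatory RNA IPS1. In roots, this programme interacts with nitrate, iron and defence signalling.

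No gene passed the adjusted threshold in the 6 libraries. With edgeR's quasi-likelihood test and Benjamini-Hochberg adjustment, 0 of 17690 genes had an adjusted p under 0.1 (percent called 0), and the smallest adjusted p was 0.225. At an unadjusted edgeR p under 0.05 there were 1426 genes, 8.06% of those tested, with 681 higher in phf1 (3.85%) and 745 lower (4.21%). DESeq2 called 364 of 19756 genes (1.84%), of which 217 were higher in phf1 (1.1%) and 147 lower (0.744%), and limma-voom with quality weights called 0, with 1735 at an unadjusted p under 0.05. The number of calls turned on 1 library. Without Col-0 library C, edgeR called 331 genes, 220 higher and 111 lower in phf1, and leaving out any of the other 5 libraries gave 0. The words higher and lower below therefore describe the measured values, with the edgeR p beside them, and not calls, unless a call is stated.

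The libraries differed in depth and in how alike they were. Total counts were 2821675, 7252956 and 5794440 in phf1 libraries A, B and C, against 3768404, 4900031 and 5548471 in Col-0 libraries A, B and C. The letters name libraries within a group and pair nothing. A level of 1 CPM (a gene's share of its library's total, scaled to the same total in all libraries) stood for 2.82 to 7.25 counts. Across genes, the log2 CPM of Col-0 library C correlated with those of the phf1 libraries at r of 0.918 to 0.933, against 0.803 with Col-0 library A and 0.879 with Col-0 library B. Col-0 library A stood apart in another way: it held 4447 CPM of the pathogenesis-related gene PR2, where Col-0 libraries B and C held 3.47 and 0.541 CPM. The biological coefficient of variation fitted to the 6 libraries was 0.413, and the median log2 fold change (phf1 over Col-0) of all tested genes was -0.03.

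The clearest pattern concerned genes of photosynthesis, whose transcripts are at home in leaves and are low in roots. All 22 tested members of a 24-gene list of leaf photosynthesis markers were higher in phf1 at an unadjusted edgeR p under 0.05, against 3.85% of all tested genes, and in 21 of them the 3 phf1 libraries all lay above the 3 Col-0 libraries, against 7.21% of all genes. The median log2 fold change of the list was 3.36, with members between 0.88 and 4.98. These counts and the median include members with few counts in Col-0, some of which passed the count filter through phf1 alone. Summed over the list, the phf1 libraries held 1879, 1305 and 1503 CPM, against 263, 249.8 and 381 CPM for the Col-0 libraries, so the lowest phf1 library lay above the highest Col-0 library. The mean sum was 1562 ± 292 CPM for phf1, against 298 ± 72.4 CPM for Col-0 (SD, n = 3 each), a ratio of 5.24.

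The list covers the light-harvesting antenna, the photosystems and carbon fixation. CAB1, a chlorophyll-binding protein of the photosystem II antenna, had 340.2, 305 and 236 CPM in phf1 libraries A, B and C, against 8.76, 11.2 and 55.9 CPM in the Col-0 libraries, a log2 fold change of 3.54 ± 0.73 (SE; edgeR adjusted p = 0.493). LHCB2.3, another antenna protein, had 19.8, 5.38 and 4.49 CPM in phf1, against 0.265, 0.204 and 0.36 CPM in Col-0 (log2 fold change 4.98 ± 0.85, edgeR adjusted p = 0.405). Its Col-0 values lay below the level of 3 counts in each library (0.796, 0.612 and 0.541 CPM). LHCB2.3 thus passed the count filter through its phf1 libraries, and the size of its fold is uncertain. The same holds for RBCS3B, with 1.06, 0.204 and 0.36 CPM in Col-0 libraries A, B and C. LHCB2.2 (0.204 CPM in Col-0 library B) and LHB1B1 (0.531 CPM in Col-0 library A) also fell below that level in part of Col-0. LHB1B1, also of the antenna, had 37.9, 5.24 and 34.9 CPM in phf1, against 0.531, 1.22 and 2.16 CPM in Col-0. These genes were higher in every phf1 library than in any Col-0 library, although phf1 library B was far below the others for LHB1B1. LHCA2, a chlorophyll-binding protein of photosystem I, had 60.6, 34.9 and 45.9 CPM in phf1, against 4.78, 10.4 and 8.47 CPM in Col-0 (log2 fold change 2.55 ± 0.35, edgeR adjusted p = 0.359). PSBP-1, part of the oxygen-evolving complex of photosystem II, had 52.8, 38.6 and 36.8 CPM in phf1, against 6.1, 6.33 and 11.9 CPM in Col-0 (log2 fold change 2.37 ± 0.32, edgeR adjusted p = 0.359). RBCS1A, a small subunit of Rubisco, the enzyme that fixes carbon dioxide, had 90.4, 63.4 and 143 CPM in phf1, against 2.65, 2.24 and 13.5 CPM in Col-0 (log2 fold change 3.99 ± 0.74, edgeR adjusted p = 0.441). In each of these genes the 2 groups did not overlap, and the highest Col-0 value of CAB1 and RBCS1A was that of library C. RCA, which keeps Rubisco active, was the exception of the list, with 119, 41.1 and 103 CPM in phf1, against 35, 42.7 and 26.7 CPM in Col-0, so phf1 library B fell within the Col-0 range.

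**Figure D1:**
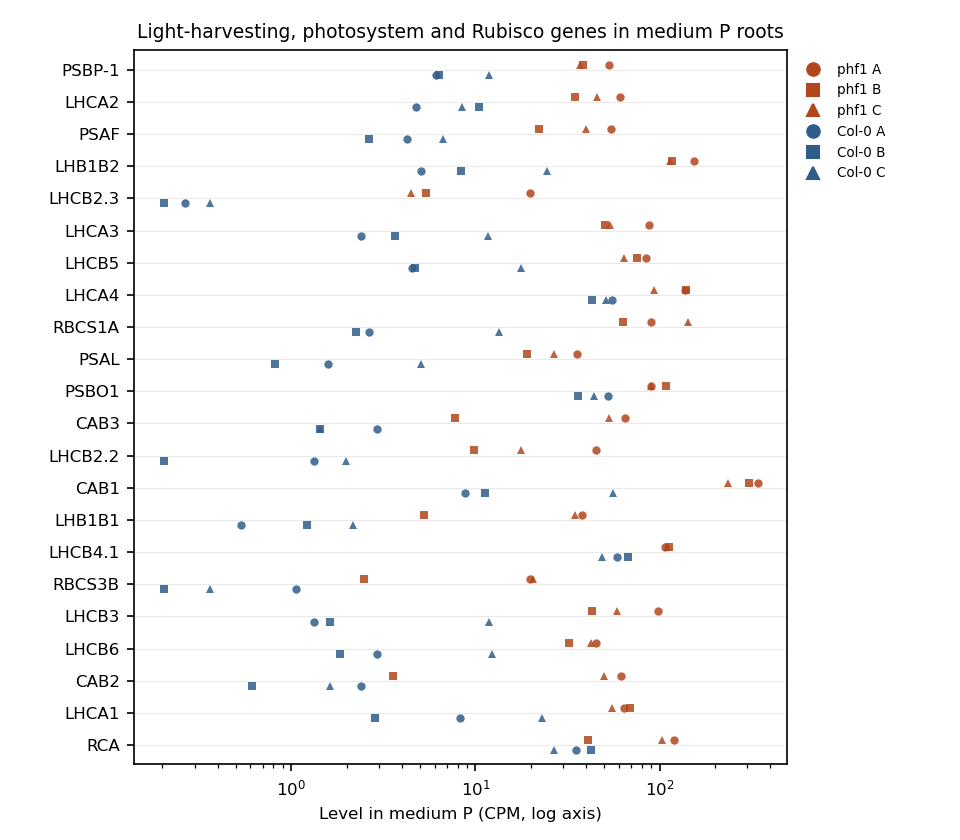
CPM on a log axis of the 22 tested leaf photosynthesis markers in the 3 phf1 and the 3 Col-0 medium P libraries, 1 point per library. The phf1 points lie above all Col-0 points of the same gene in 21 of the 22 genes.

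The pattern was also seen in a wider family and with each library left out. Of the 72 genes whose product name places them in a photosystem or among chlorophyll-binding proteins, a family chosen after the values were seen, 59 were tested, 41 were higher in phf1 at an unadjusted edgeR p under 0.05 and 0 were lower, against 3.85% of all genes higher. The median log2 fold change of the family was 2.37. The family holds 18 of the markers. Of its 54 other genes, 41 were tested, 23 were higher at that p and 0 lower, and their median was 1.49. Leaving out each library in turn left 21 to 23 of the marker list higher in phf1 at that p and a list median between 3.06 and 4.22. Without Col-0 library C, edgeR called 12 of the 23 markers then tested, and DESeq2 on all 6 libraries called 22 of the 24. When all 22 Col-0 and phf1 libraries of the 4 regimes shared 1 estimate of the spread, edgeR called 7 of 19034 genes (0.0368%) in medium P, among them LHB1B1 and LHCB2.3. Both had few counts in Col-0 in medium P, so the size of their folds is uncertain. Near-identical relatives share part of the sequence of these genes: 13.7% of the 50-base words of LHB1B1 and 11.4% of those of LHCA2 also occur elsewhere in the genome, so counts could be split between relatives.

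The sums of the marker list overlapped between phf1 and Col-0 in low P and in high P, and did not overlap where phosphate was added to low P pots. In low P, the sum was 336, 538 and 207 CPM in the phf1 libraries, against 369, 269 and 131 CPM in the Col-0 libraries. With added phosphate it was 566 and 459 CPM in the 2 phf1 libraries, against 276 and 180.1 CPM in the 2 Col-0 libraries, and the phf1 effect there was not tested against that in medium P. In high P it was 3413, 356 and 203 CPM in phf1, against 423, 199 and 174 CPM in Col-0, so 1 phf1 library from high P exceeded every medium P library and the other two lay within the Col-0 range. Within regimes, in the fit of 22 libraries, 1 of 23 markers was higher in phf1 in low P at an unadjusted edgeR p under 0.05 (2.12% of all genes were) and 13 of 23 in high P (2.75% of all genes were). The difference between phf1 and Col-0 was larger in medium than in low P at an unadjusted edgeR p under 0.05 in 10 of 23 markers, where 3.47% of all genes were, and larger than in high P in 6 of 23 markers, where 1.64% were. None of these 23 markers passed the adjusted threshold in either difference. The plot of library sums shows low, medium and high P.

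**Figure D2:**
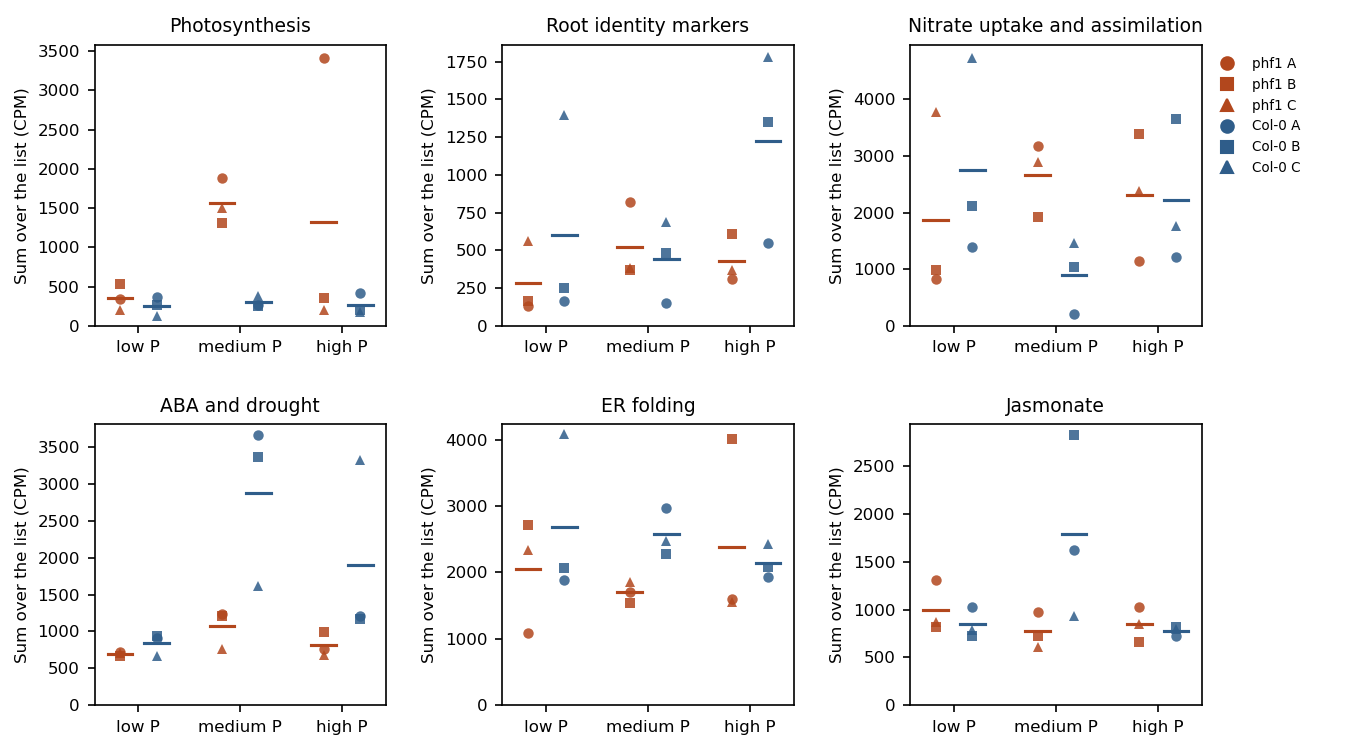
Summed CPM of the leaf photosynthesis, root identity, nitrate, abscisic acid, ER folding and jasmonate lists in each phf1 and Col-0 library of low, medium and high P, with 1 point per library and group means as lines. Letters name libraries within a group. In medium P the phf1 photosynthesis sums (1305 to 1879 CPM) lie above the Col-0 sums (249.8 to 381 CPM), and in low P the groups overlap.

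Root markers showed no common shift between the groups. Of 15 root identity genes (endodermis, epidermis and root triterpene genes), 14 were tested and 0 had an unadjusted edgeR p under 0.05, with a median log2 fold change of 0.08. By DESeq2 the adjusted calls were also 0. The summed CPM of the list was 819, 369 and 384 in phf1 libraries A, B and C, against 151, 485 and 690.1 in Col-0 libraries A, B and C. SHR, a transcription factor made in the stele that sets endodermis identity, had 65.2, 40.5 and 49.4 CPM in phf1, against 38.2, 30.8 and 46.5 CPM in Col-0. MYB36, a regulator of Casparian strip formation, had 17.7, 10.1 and 10.7 CPM in phf1, against 0.796, 7.96 and 12.4 CPM in Col-0. Col-0 library A was the lowest of the 6 for the list, with CASP1, RHS19, EXT13 and MRN1 at 0 CPM, which allows up to 0.796 CPM (3 counts) for each, and the list median moved between -0.53 without Col-0 library A and 0.74 without Col-0 library C. In whole roots, fewer cells of a type and less RNA per cell cannot be told apart. The leaf marker sums separated the same 6 libraries by genotype, and the part of RNA from green tissue in the differences below was not tested.

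Genes of abscisic acid (ABA) and drought response were lower in phf1. Abscisic acid is the hormone that accumulates in water deficit and switches on dehydrins and the clade A protein phosphatases (PP2C) that feed back on its own signalling. All 17 members of the ABA list were tested, all 17 had a negative log2 fold change, and 11 were lower in phf1 at an unadjusted edgeR p under 0.05 and 0 higher, where 4.21% of all genes were lower. The list median was -2.05 on the log2 scale, and in 8 genes the phf1 libraries all lay below the Col-0 libraries, against 7.02% of all genes. The summed CPM was 1237, 1212 and 764 in phf1, against 3667, 3370 and 1624 in Col-0, without overlap, and Col-0 library C was the lowest of its group.

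HAI1 and ERD10 had the smallest p of the list. HAI1, a highly ABA-induced PP2C, had 11, 1.52 and 2.59 CPM in phf1, against 255, 110.0 and 15.3 CPM in Col-0 (log2 fold change -4.85 ± 1.25, edgeR adjusted p = 0.53). ERD10, a dehydrin, had 68, 85.1 and 53.3 CPM in phf1, against 632, 225 and 142 CPM in Col-0 (log2 fold change -2.33 ± 0.60, edgeR adjusted p = 0.53). Among the genes outside the list, those with the smallest p of all lower genes included a pair of the same kind. HAI2, the close relative of HAI1, had 0.709, 1.38 and 0.173 CPM in phf1, against 71.9, 83.5 and 7.75 CPM in Col-0, a log2 fold change of -6.11 ± 1.14 (SE; edgeR adjusted p = 0.441, DESeq2 adjusted p = 6.73e-07). KIN2, a small stress protein induced by cold and ABA, had 10.3, 14.6 and 11.4 CPM in phf1, against 323, 443 and 42.4 CPM in Col-0 (log2 fold change -4.52 ± 0.87, edgeR adjusted p = 0.47). In all 4 genes phf1 and Col-0 did not overlap, and Col-0 library C held the lowest Col-0 value. HAI2 and KIN2 were chosen for small p and lack of overlap, so they are not separate support for the list. The HAI2 values of phf1 libraries A and C lay below the level of 3 counts (1.06 and 0.518 CPM). HAI2 thus passed the count filter through its Col-0 libraries, and the size of its fold is uncertain. The number of list members lower at an unadjusted edgeR p under 0.05 ran between 6 (without phf1 library C) and 13 (without Col-0 library C), and the list median between -2.46 and -1.47. DESeq2 called 5 of the 16 members it tested. The difference was more negative in medium than in low P at an unadjusted edgeR p under 0.05 in 6 of 17 members, where 2.76% of all genes were. In low P the sums were 663 to 722 CPM in phf1, against 663 to 944 CPM in Col-0, and in high P they were 679.7 to 986 CPM in phf1, against 1174 to 3329 CPM in Col-0. With phosphate added to low P pots they were 882 and 756 CPM in phf1, against 1214 and 819.6 CPM in Col-0. In the fit of 22 libraries, 1 of 17 members was lower in phf1 in low P at that p (2.54% of all genes were) and 6 of 17 in high P (1.96% of all genes were).

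Phosphate genes gave a mixed picture. PHF1 itself had 29.1, 14.2 and 12.9 CPM in phf1, against 16.2, 22.4 and 26.1 CPM in Col-0, a log2 fold change of -0.24 ± 0.37 (SE; edgeR adjusted p = 0.876), and the groups overlapped. The part of the gene altered in the allele is not given in the sources used here, so these counts do not check the genotype label. The PHT1 transporters, whose export from the ER needs PHF1, were mostly at low counts, and 3 of the 9 members passed the filter.

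PHT1;1, a main phosphate importer of the root surface, had 311, 75.8 and 71.3 CPM in phf1, against 0.796, 43.7 and 63.8 CPM in Col-0 (log2 fold change 2.08 ± 1.19, edgeR adjusted p = 0.673). All 3 phf1 values lay above the Col-0 values, but those of phf1 libraries B and C were close to that of Col-0 library C, and the spread came from phf1 library A and Col-0 library A. PHT1;2, its near-identical neighbour, had 18.4, 5.65 and 6.56 CPM in phf1, against 0, 0.816 and 3.6 CPM in Col-0 (log2 fold change 2.69 ± 1.05, edgeR adjusted p = 0.608). Of the 50-base words of PHT1;1, 42.5% occur elsewhere in the genome, as do 45.6% of those of PHT1;2, so the counts of the 2 genes are uncertain. PHT1;4, the other main importer, had 33.3, 11.4 and 8.8 CPM in phf1, against 4.25, 39 and 17.5 CPM in Col-0 (log2 fold change -0.22 ± 0.82, edgeR adjusted p = 0.957), with overlap and a positive fold change without Col-0 library B, phf1 library B or phf1 library C. The sign of PHT1;4 thus varied with the library left out. Among members that did not pass the filter, PHT1;9 had 4.96, 2.34 and 1.73 CPM in phf1, against 0.531, 0.816 and 0.721 CPM in Col-0. PHT1;8 had 7.09, 0.965 and 0.518 CPM in phf1, against 0, 0.408 and 1.62 CPM in Col-0. PHT1;3 was counted in phf1 library A (6.02 CPM) and Col-0 library C (2.34 CPM) and in no other of the 6. PHT1;5 did not exceed 0.551 CPM in phf1, against 0.204 CPM in Col-0, while PHT1;6 and PHT1;7 had no count in any of the 6 libraries. The 0 CPM of PHT1;2 in Col-0 library A allows up to 0.796 CPM, the value of 3 counts in that library.

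IPS1, the phosphate starvation RNA that sequesters miR399, stood out from the other signalling genes. It had 31.2, 10.1 and 9.15 CPM in phf1, against 0, 0.612 and 0.541 CPM in Col-0, a log2 fold change of 5.25 ± 0.88 (SE; edgeR adjusted p = 0.405, DESeq2 adjusted p = 8.82e-06). The Col-0 values stand for 0 to 3 counts per library, so the size of the fold is uncertain while every phf1 library lay above every Col-0 library. SPX1, a phosphate sensor that restrains PHR1, had 47.8, 101 and 49.5 CPM in phf1, against 8.23, 40 and 29.2 CPM in Col-0 (log2 fold change 1.34 ± 0.57, edgeR adjusted p = 0.626), also without overlap. IPS1 was the single member of the 14 tested phosphate signalling and allocation genes with an unadjusted edgeR p under 0.05, and the list median was 0.11.

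Downstream groups of the PSR did not move one way. Of 15 tested membrane lipid remodelling genes, 0 passed an unadjusted edgeR p of 0.05 (median log2 fold change 0.09) and DESeq2 called 0. MGD3, which makes galactolipid in place of phospholipid, had 4.61, 3.72 and 2.42 CPM in phf1, against 1.86, 0.612 and 1.8 CPM in Col-0. SRG3, a glycerophosphodiester phosphodiesterase that acts in phospholipid breakdown, had 47.8, 96.9 and 40.7 CPM in phf1, against 19.6, 43.7 and 33 CPM in Col-0. Both genes were higher in phf1 on average, and for SRG3 the groups overlapped. Among 12 tested phosphatases and RNases that scavenge phosphate, 2 were lower in phf1 at that p and 0 higher (list median -0.28). PAP10, a purple acid phosphatase secreted at the root surface, had 1.77, 1.38 and 0.518 CPM in phf1, against 5.31, 7.14 and 8.29 CPM in Col-0 (log2 fold change -2.55 ± 0.51, edgeR adjusted p = 0.474). The phf1 values of PAP10 stand for few counts per library, so the size of its fold is uncertain. PAP17, another purple acid phosphatase, had 41.1, 25.6 and 18.1 CPM in phf1, against 175, 167 and 19.8 CPM in Col-0 (log2 fold change -2.15 ± 0.80, edgeR adjusted p = 0.605). For PAP17 the difference lay in Col-0 libraries A and B, since Col-0 library C was within the phf1 range. PAP10, PAP17 and SRG3 overlap a gene on the opposite strand, and the libraries carried no strand, so reads of the partners cannot be told apart.

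**Figure D3:**
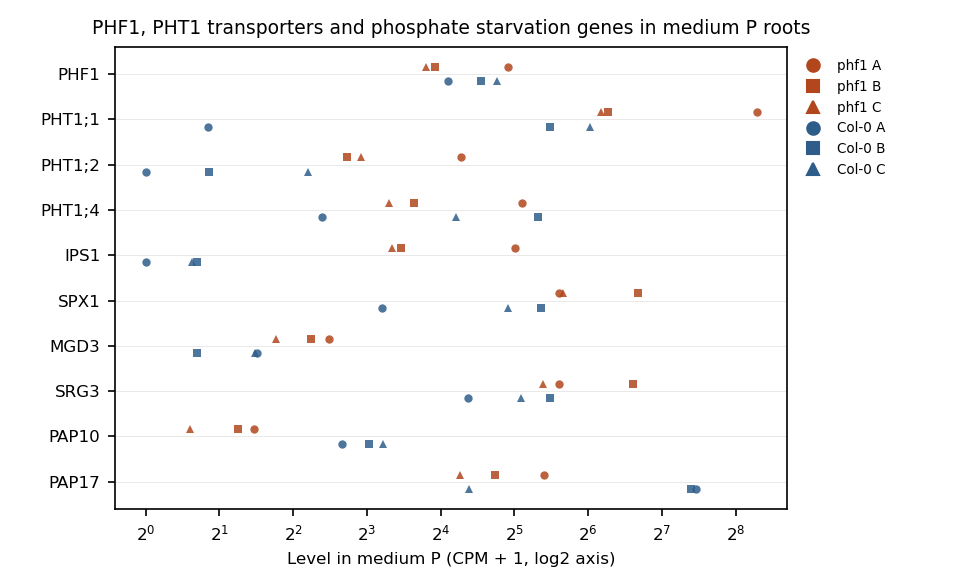
CPM (log2 axis, 1 CPM added) of the named phosphate genes in the 3 phf1 and the 3 Col-0 medium P libraries, 1 point per library. IPS1 and SPX1 lie higher in every phf1 library than in any Col-0 library, PAP10 lies lower, and PHF1, PHT1;4, SRG3 and PAP17 overlap between the groups.

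The PSR markers of the study gave no common direction either. Its Cluster 1 genes leaned higher in phf1, and that lean turned on phf1 library A. Of the 192 PSR marker genes in the table, a list the study took from earlier work on axenic seedlings, 157 were tested, 14 were higher and 12 lower in phf1 at an unadjusted edgeR p under 0.05, where 3.85% and 4.21% of all genes were, and the median log2 fold change was -0.07. Of the 123 genes of its Cluster 1, 112 were tested, 13 were higher and 5 lower, and the median was 0.63. A positive log2 fold change was seen in 73 of the 112 and a negative one in 39. The study chose these genes on its libraries of low P with and without added phosphate. They were high there in Col-0 in low P but in neither mutant, so counts that use low P are not independent evidence. Without phf1 library A the Cluster 1 median was -0.14, with 5 genes higher and 9 lower. The phf1 effect was more positive in medium than in low P at an unadjusted edgeR p under 0.05 in 66 of 123 Cluster 1 genes. It was more negative in 1, where 3.47% and 2.76% of all genes were more positive and more negative. Measured against Col-0 of the same regime, 76 of the 123 were lower in phf1 in low P at that p and 0 higher, where 2.54% and 2.12% of all genes were. Both counts use low P libraries on which the list was chosen, so their direction was set by that choice.

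Genes of nitrate regulation and assimilation were higher in phf1, while the tested nitrate transporters overlapped between the groups. All 11 tested members of the list of nitrate uptake and assimilation had a positive log2 fold change (median 1.05), 5 were higher at an unadjusted edgeR p under 0.05 and 0 lower, where 3.85% of all genes were higher, and in 7 the phf1 libraries lay above all Col-0 libraries, against 7.21% of all genes. HHO3 and HHO2, transcriptional repressors of the HRS1 (NIGT1) family that link nitrate and phosphate signalling, were the members with the smallest p. HHO3 had 107, 152 and 109.9 CPM in phf1, against 52, 45.3 and 62.5 CPM in Col-0 (log2 fold change 1.18 ± 0.21, edgeR adjusted p = 0.429, DESeq2 adjusted p = 0.0011). HHO2 had 102, 89.6 and 101 CPM in phf1, against 61.3, 45.7 and 46.9 CPM in Col-0 (log2 fold change 0.90 ± 0.20, edgeR adjusted p = 0.504, DESeq2 adjusted p = 0.0397). The relatives HRS1 and HHO1 ran the same way. HRS1 had 77.6, 106 and 118 CPM in phf1, against 8.76, 17.6 and 49.9 CPM in Col-0. HHO1 had 14.5, 13.4 and 13.1 CPM in phf1, against 0, 1.63 and 4.33 CPM in Col-0.

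The assimilation enzymes ran the same way as these repressors, with a wider spread in Col-0. NIA1, a nitrate reductase, had 1218, 874 and 1433 CPM in phf1, against 3.18, 212 and 308 CPM in Col-0 (log2 fold change 2.77 ± 1.21, edgeR adjusted p = 0.626). NIA2, also a nitrate reductase, had 299, 330 and 537 CPM in phf1, against 32.6, 122 and 223 CPM in Col-0 (log2 fold change 1.64 ± 0.63, edgeR adjusted p = 0.608). NIR1, nitrite reductase, had 199.5, 145 and 191 CPM in phf1, against 27.6, 96.7 and 135 CPM in Col-0. Of these enzymes, NIA2 alone had an unadjusted edgeR p under 0.05. The transporter NRT2.1, by contrast, overlapped widely, with 157, 25.5 and 36.1 CPM in phf1, against 2.65, 99.4 and 114 CPM in Col-0. WR3, annotated as a nitrate transmembrane transporter, and the transporters NRT1.1 and NRT1.5 overlapped too, at unadjusted edgeR p of 0.438, 0.467 and 0.705. Col-0 library A held the lowest value of NIA1, NIR1, HRS1 and HHO1 and also the lowest sum of root identity genes. Without that library the list median was 1.08 and 7 members were higher at an unadjusted edgeR p under 0.05. Over the other leave-one-out fits the number was 3 (without Col-0 library B) to 6. In the fit of 22 libraries, the list median was -1.25 in low P and 0.34 in high P. In low P 2 of 13 members were lower in phf1 at that p and 0 higher, where 2.54% and 2.12% of all genes were. In high P 0 members differed at that p.

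Genes of protein folding in the ER, the compartment in which PHF1 acts, were lower in phf1 by small amounts. Of 19 tested members, 18 had a negative log2 fold change (median -0.51), 9 were lower at an unadjusted edgeR p under 0.05 and 0 higher, where 4.21% of all genes were lower, and in 9 the phf1 libraries lay below all Col-0 libraries, against 7.02% of all genes. BIP2, the main HSP70 chaperone of the ER lumen, had 97.5, 72.7 and 111 CPM in phf1, against 151, 191 and 189 CPM in Col-0 (log2 fold change -0.94 ± 0.22, edgeR adjusted p = 0.504, DESeq2 adjusted p = 0.0363), and 24.1% of its 50-base words occur elsewhere in the genome. SHD, the HSP90 of the ER, had 222, 255 and 323 CPM in phf1, against 876, 404 and 402 CPM in Col-0 (log2 fold change -1.11 ± 0.39, edgeR adjusted p = 0.603). For both genes the groups did not overlap. The list sum was 1697, 1542 and 1847 CPM in phf1, against 2965, 2282 and 2473 CPM in Col-0. The count depended on the libraries and the fit: each leave-one-out fit left 1 (without phf1 library B) to 6 members lower at that p, and the fit of 22 libraries left 2, where 4.7% of all genes were lower. In that fit the list median was -0.29 in low P and 0.19 in high P. The list sums overlapped in low P (1087 to 2719 CPM in phf1, 1878 to 4082 in Col-0). They also overlapped in high P (1551 to 4010 CPM in phf1, 1932 to 2421 in Col-0). With phosphate added to low P pots they were 1160 and 1435 CPM in phf1, against 2345 and 2848 CPM in Col-0. Of the 14 tested genes of the ER exit machinery, which includes the SEC12 relatives of PHF1, 1 was lower and 0 higher (median -0.23). That gene, SAR1B, a GTPase of COPII vesicle budding, had 61, 54.9 and 73.2 CPM in phf1, against 68.2, 125 and 93.7 CPM in Col-0, with overlap.

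The remaining lists are set against 3.85% of all genes higher and 4.21% lower in phf1 at an unadjusted edgeR p under 0.05. Of 12 tested jasmonate genes, 4 were lower and 0 higher at that p, where 4.21% of all genes were lower (median -0.79), a number that ran between 0 without phf1 library C and 6 without Col-0 library C. VSP2, a storage protein induced by jasmonate, had 22.7, 105 and 12.6 CPM in phf1, against 474, 1918 and 56.6 CPM in Col-0 (log2 fold change -4.17 ± 1.41, edgeR adjusted p = 0.594), and phf1 library B lay above Col-0 library C. VSP1, its relative, had 8.86, 5.24 and 7.77 CPM in phf1, against 10.3, 84.1 and 18.7 CPM in Col-0. Of 12 tested salicylic acid genes, 1 was higher and 1 lower (median -0.14). NPR4, a receptor of salicylic acid, was the higher one, with 51.7, 39.8 and 35.4 CPM in phf1, against 23.6, 18 and 25.4 CPM in Col-0. PR2 was the lower one, with 11.3, 1.65 and 1.21 CPM in phf1, against 4447, 3.47 and 0.541 CPM in Col-0, so its log2 fold change of -8.52 came from Col-0 library A and was 1.14 without it. Without that library 4 salicylic acid genes were higher and 0 lower, and the list median was 1.07.

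In the camalexin and indole glucosinolate list, 2 of 13 tested genes were higher and 1 lower at an unadjusted edgeR p under 0.05 (median 0.06). MYB34, a regulator of indole glucosinolate synthesis, had 34, 18.8 and 20.9 CPM in phf1, against 111, 69 and 45.4 CPM in Col-0 (log2 fold change -1.66 ± 0.42, edgeR adjusted p = 0.526). CYP81F1, a cytochrome P450 of the same pathway, had 108, 45.2 and 89.6 CPM in phf1, against 19.4, 35.5 and 35.7 CPM in Col-0. Of 7 tested heat shock genes, 2 were lower and 0 higher (median -0.73), all 7 had a negative log2 fold change, and 2 or 3 were lower with each library left out. HSP70, a cytosolic chaperone, had 43.9, 31.3 and 11.2 CPM in phf1, against 59.2, 254 and 406 CPM in Col-0. Of 14 tested clock genes, 2 were lower and 0 higher (median 0.28). RVE8 had 13.8, 13.6 and 15.4 CPM in phf1, against 38.2, 64.9 and 15.9 CPM in Col-0. CCA1 had 8.51, 18.2 and 48 CPM in phf1, against 131, 179 and 29.6 CPM in Col-0. Both are morning-phased transcription factors of the clock, and in both Col-0 library C was far below the other Col-0 libraries. SEN1, a gene induced by darkness and senescence, had 52.1, 139.7 and 30.7 CPM in phf1, against 2.12, 1.84 and 20.5 CPM in Col-0, and was the single senescence gene of 8 tested with an unadjusted edgeR p under 0.05 (list median 0.24).

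Few or no members of the mineral and barrier lists differed, with list medians from -0.37 to 0.09. At an unadjusted edgeR p under 0.05, 0 of 11 iron genes (median -0.02), 0 of 10 sulfate genes (median -0.37) and 0 of 10 root hair genes (median -0.27) differed, and DESeq2 called 0 in each. FER1, the iron store ferritin, had 297, 304 and 206 CPM in phf1, against 456, 371 and 346 CPM in Col-0, without overlap. Of 18 Casparian strip and suberin genes 1 was higher (median 0.09), which was ABCG20, a transporter of suberin precursors, with 81.2, 60.3 and 70.6 CPM in phf1, against 39.8, 54.1 and 54.8 CPM in Col-0. Of 13 hypoxia genes 1 was lower (median -0.16), which was AlaAT1, alanine aminotransferase, with 159, 106 and 114 CPM in phf1, against 257, 234 and 186 CPM in Col-0. The plot of list medians sets these values beside each other.

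**Figure D4:**
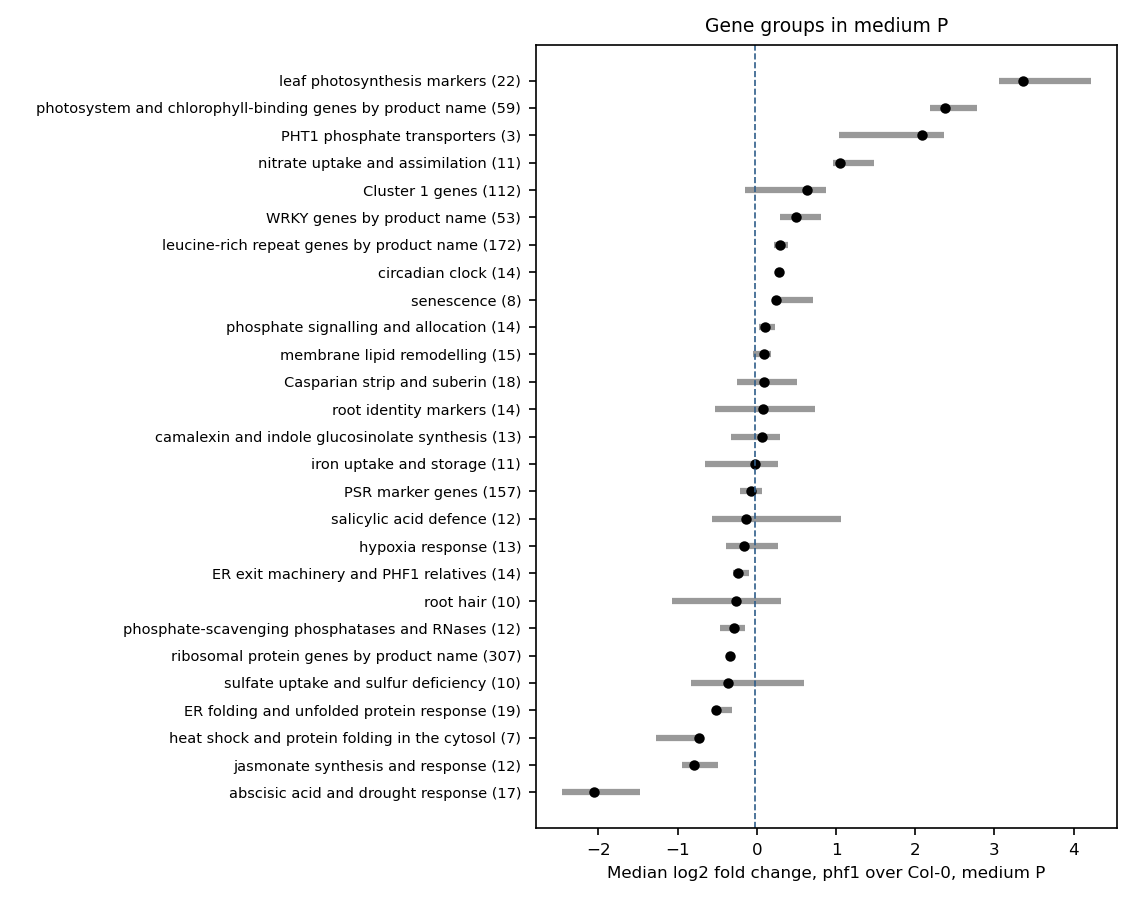
Median log2 fold change (phf1 over Col-0, medium P) of the tested members of each gene list, with the range of medians when each of the 6 libraries was left out as a grey line, the number tested in brackets and the median of all tested genes as a dashed line. The leaf photosynthesis markers stand highest at 3.36 and the abscisic acid list lowest at -2.05, and the dashed line stands at -0.03.

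The 24 genes with the smallest p in the 2 directions, among those whose groups did not overlap, had log2 fold changes of 1.33 to 6.11 in size. All 24 had a DESeq2 adjusted p under 0.1 and kept their sign under all 13 alternatives. Without Col-0 library C, edgeR called 23 of them. These genes were chosen by small p and lack of overlap in the same libraries, so none of these results is separate support. PCK2, a phosphoenolpyruvate carboxykinase of gluconeogenesis, had the smallest p of all, with 75.1, 74.3 and 73.2 CPM in phf1, against 9.55, 11 and 16.2 CPM in Col-0, means of 74.2 ± 0.984 and 12.3 ± 3.5 CPM (SD, n = 3 each) and a log2 fold change of 2.58 ± 0.22 (SE; edgeR adjusted p = 0.225, DESeq2 adjusted p = 9.06e-17). Its values were almost level in phf1 and far from the Col-0 range. WRKY62, a defence-related transcription factor, had 52.8, 36.5 and 51.3 CPM in phf1, against 8.76, 10.8 and 7.39 CPM in Col-0 (log2 fold change 2.35 ± 0.27, edgeR adjusted p = 0.359). WRKY38, which acts with WRKY62, had 14.5, 15.9 and 16.6 CPM in phf1, against 3.98, 7.96 and 7.93 CPM in Col-0.

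Among the other higher genes, ATPC1, the gamma subunit of the chloroplast ATP synthase, had 13.1, 8.82 and 6.9 CPM in phf1, against 0.531, 0.816 and 0.721 CPM in Col-0. AT5G35760, annotated as beta-galactosidase related, had 8.86, 12.4 and 10.7 CPM in phf1, against 0.265, 0.816 and 0.901 CPM in Col-0. AT5G52700, annotated as a copper transport protein, had 34.4, 12.8 and 27.8 CPM in phf1, against 0.265, 0.204 and 1.08 CPM in Col-0. The Col-0 values of these genes stand for a few counts per library. AT1G52130, a mannose-binding lectin, had 82.2, 25.4 and 45.2 CPM in phf1, against 2.65, 3.88 and 3.6 CPM in Col-0. ARD3, an acireductone dioxygenase of the methionine salvage cycle, had 20.2, 5.93 and 11.4 CPM in phf1, against 0.531, 0.612 and 0.721 CPM in Col-0. GAT1_2.1, a glutamine amidotransferase-like protein, had 17.7, 14.1 and 14.2 CPM in phf1, against 2.65, 2.24 and 3.97 CPM in Col-0. In these genes phf1 library A held the highest value and phf1 libraries B and C still lay above Col-0. AT1G07920, a translation elongation factor gene, had 214, 197 and 258 CPM in phf1, against 33.7, 62 and 46.7 CPM in Col-0, but 67.2% of its 50-base words occur elsewhere in the genome. AT5G39120, a cupin protein with 47.3% shared words, had 198, 181 and 209 CPM in phf1, against 86.8, 71.2 and 71 CPM in Col-0.

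Among the lower genes besides HAI2 and KIN2, transport, cell wall and sugar enzymes were represented. UMAMIT28, an amino acid exporter, had 14.5, 9.1 and 13.3 CPM in phf1, against 47.2, 33.1 and 36 CPM in Col-0 (log2 fold change -1.69 ± 0.28, edgeR adjusted p = 0.405). AT1G33440, a transporter of the major facilitator superfamily, had 8.15, 8.13 and 7.25 CPM in phf1, against 47.5, 35.5 and 20.5 CPM in Col-0 (log2 fold change -2.18 ± 0.37, edgeR adjusted p = 0.405), and was called in the fit of 22 libraries. SPS2F, a sucrose phosphate synthase, had 19.8, 9.93 and 8.97 CPM in phf1, against 112, 102 and 44.5 CPM in Col-0 (log2 fold change -2.80 ± 0.50, edgeR adjusted p = 0.429). The phf1 values of AT1G33440 were nearly equal, while its Col-0 values spread. ST2A, a sulfotransferase that inactivates hydroxylated jasmonate, had 41.8, 59.3 and 62.1 CPM in phf1, against 318, 243 and 129 CPM in Col-0. TSA1, a component of ER bodies, had 23.7, 28.4 and 11.9 CPM in phf1, against 179.7, 136 and 63.6 CPM in Col-0. For these last genes Col-0 library C was nearest to phf1. AT2G15780, a cupredoxin, had 8.86, 3.45 and 3.8 CPM in phf1, against 50.7, 70.4 and 35.9 CPM in Col-0 (log2 fold change -3.37 ± 0.48, edgeR adjusted p = 0.359). AT2G43870, a pectin lyase-like protein, had 0.709, 0.551 and 0.518 CPM in phf1, against 10.1, 12.4 and 3.24 CPM in Col-0. AT4G14020, of the RALF family of peptide signals, had 4.96, 4 and 3.45 CPM in phf1, against 11.9, 14.9 and 13.9 CPM in Col-0. The phf1 libraries held few counts of AT2G43870. AT1G24735, a methyltransferase that overlaps a gene on the opposite strand, had 1.42, 1.65 and 1.73 CPM in phf1, against 6.63, 9.8 and 7.75 CPM in Col-0. AT4G27560, a glycosyltransferase with 19.5% shared words, had 10.3, 5.1 and 6.39 CPM in phf1, against 30.8, 35.7 and 22.5 CPM in Col-0.

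**Figure D5:**
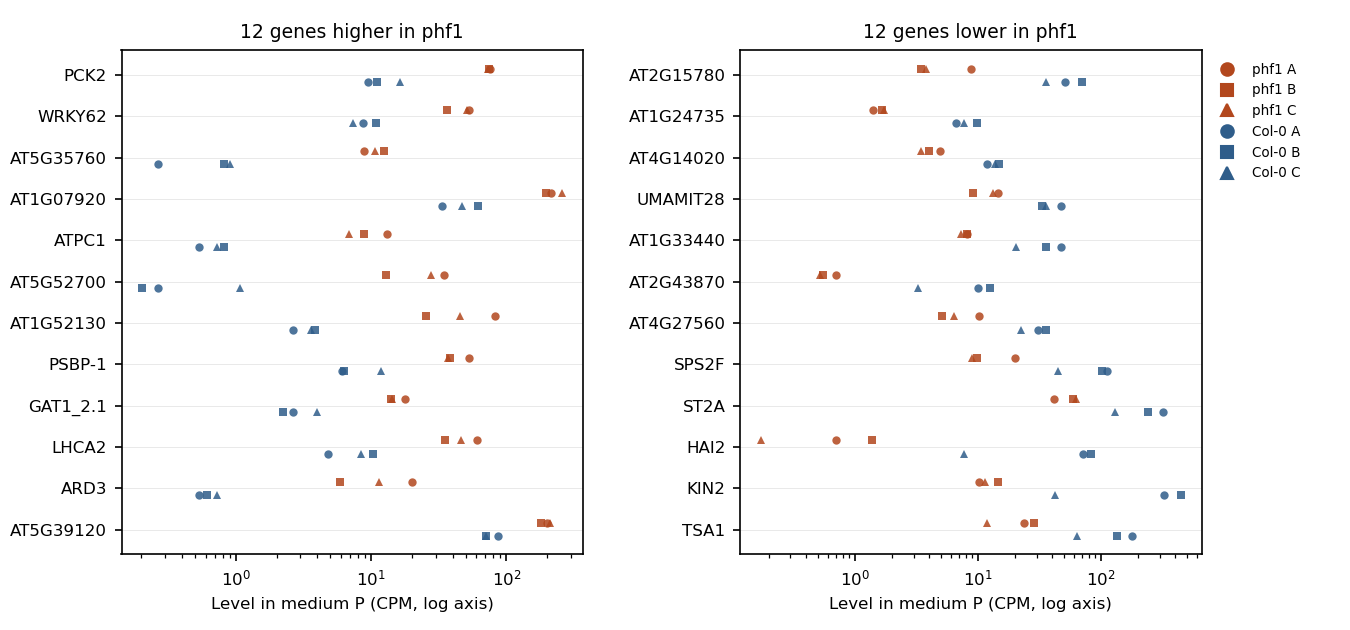
CPM on a log axis of the 12 higher and the 12 lower genes with the smallest edgeR p among those without overlap, in the 3 phf1 and the 3 Col-0 medium P libraries, 1 point per library. The phf1 points lie above all Col-0 points in the 12 higher genes and below them in the 12 lower genes, which is how the genes were chosen, and Col-0 library C lies far nearer to phf1 for HAI2 (7.75 CPM) and KIN2 (42.4 CPM).

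Families taken by product name after the values were seen gave smaller shifts. Of 307 tested ribosomal protein genes, 49 were lower in phf1 and 3 higher at an unadjusted edgeR p under 0.05, where 4.21% of all genes were lower. In 94 of them the groups did not overlap in that direction, against 7.02% of all genes. The median log2 fold change of the 307 was -0.34. Leaving out 1 library left 16 (without phf1 library A) to 57 of them lower. AT3G47370, a ribosomal protein of the S10p/S20e family, had 54.2, 54.3 and 52.5 CPM in phf1, against 73, 107 and 95.9 CPM in Col-0 (log2 fold change -0.79 ± 0.18, edgeR adjusted p = 0.504). Of 53 tested WRKY genes, 7 were higher and 1 lower (median 0.49), where 3.85% of all genes were higher, and 18 were higher without Col-0 library C. Of 172 tested leucine-rich repeat genes, many of which encode cell surface receptors, 15 were higher and 3 lower (median 0.30), with 4 higher without phf1 library C and 46 without Col-0 library C. AT5G53320, a receptor kinase of this family, had 29.4, 29.2 and 43.7 CPM in phf1, against 10.3, 18 and 16.6 CPM in Col-0.

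The last comparison asked whether the phf1 effect in medium P differed from that in the other regimes, in the fit of 22 libraries. Against low P, edgeR called 2 of 19034 genes (0.0105%), NIT2 and HOL1, and 1186 had an unadjusted p under 0.05 (6.23%). NIT2, a nitrilase that makes auxin from its nitrile, had 93.2, 42.5 and 50 CPM in phf1 in medium P, against 11.7, 18.6 and 27.6 CPM in Col-0, while in low P it had 15.6 to 18.4 CPM in phf1, against 73.1 to 133 CPM in Col-0. The direction of the genotype difference was thus opposite in the 2 regimes, and the phf1 effect in medium minus that in low P was 4.23 ± 0.60 on the log2 scale (SE; edgeR adjusted p = 0.0357). HOL1, a methyltransferase that makes methyl halides and methyl thiocyanate, had 168, 180.1 and 206 CPM in phf1 in medium P, against 70.3, 42.2 and 73.5 CPM in Col-0, while in low P the groups overlapped at 137 to 163 CPM in phf1, against 152 to 192 CPM in Col-0. Its difference between the regimes was 1.72 ± 0.27 (SE; edgeR adjusted p = 0.0564). In high P, HOL1 had 150 to 184 CPM in phf1, against 76.5 to 101 CPM in Col-0. COL4, a CONSTANS-like zinc finger protein, came next, with 15.6, 21.6 and 2.76 CPM in phf1 in medium P, against 0.796, 3.47 and 4.51 CPM in Col-0, and 0.363 to 1.80 CPM in phf1 in low P, against 5.82 to 131 CPM in Col-0 (difference 8.63 ± 1.53, edgeR adjusted p = 0.181).

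These calls were sensitive to single libraries. Without Col-0 medium P library C, edgeR called 372 genes for medium minus low P, 301 with a more positive and 71 with a more negative phf1 effect in medium P, and 0 were called without Col-0 library B or phf1 library A of medium P, or without low P libraries Col-0 A, phf1 A, phf1 B or phf1 C. Leaving out each of the 12 medium and low P libraries in turn kept NIT2 at an edgeR adjusted p under 0.1 in 6 fits and HOL1 in 3, with differences of 3.82 to 4.57 for NIT2 and 1.51 to 1.86 for HOL1. Against high P, edgeR called 0 genes (percent called 0), with 688 at an unadjusted p under 0.05 (3.61%) and a smallest adjusted p of 0.843, and DESeq2 called 3. Without Col-0 medium P library C it called 8, and without phf1 medium P library B it called 1. The smallest p against high P belonged to LHB1B1, which in high P had 1.54 to 4.12 CPM in phf1, against 5.01 to 6.48 CPM in Col-0. Its phf1 effect in medium minus that in high P was 5.24 on the log2 scale (edgeR adjusted p = 0.843), and AT1G33440 (-2.15) and AT3G55840 (-2.68) came after it at the same adjusted p.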

How the data were processed

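The authors extracted root RNA, selected poly(A) RNA and sequenced non-stranded Illumina libraries. Per the labels, the submitters' processing notes name bcl2fastq 2.20.0, FastQC 0.11.7, Trimmomatic 0.36, HISAT2 2.1.0 and featureCounts, whose version is not given in the sources used here, with the TAIR10 genome. The deposited table holds whole-number counts per gene for the 25 root libraries, with no normalization, and each column was matched to a group of genotype and P regime by its header, without a replicate number (0 columns were left without a group). The labels name a phenol-type RNA extraction where the methods name a silica kit.

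Counts of the 3 phf1 and 3 Col-0 medium P libraries were fitted with edgeR 4.0.16 in R 4.3.3 (TMM normalization, filterByExpr with a minimum count of 10, quasi-likelihood test, two-sided, Benjamini-Hochberg adjusted p under 0.1 called). Differences of the phf1 effect between regimes came from a fit of the 22 Col-0 and phf1 libraries in 8 groups. CPM were a gene's counts over the library total, scaled alike in all libraries, and SE are of the log2 fold change. Shared 50-base words and overlapping genes were found in the TAIR10.1 annotation, to which 26719 gene IDs matched; 4718 genes had no count in the 6 libraries. The chi-square per gene between libraries of a group lay above sampling noise for every pair, so none was counted as a duplicate. A count of 0 allows up to 3 counts, and such limits cover counting error only.

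Named genes were PHF1, the PHT1 family, the 12 genes in each direction with the smallest p among those without overlap, 2 per list, and 3 per difference between regimes. CAB1, RBCS1A, RCA, HRS1, HHO1, NIA1, NIA2, NIR1, WR3, NRT1.1, NRT1.5 and NRT2.1 were added after their values were seen, as were the 4 families by product name. The members and lists were chosen with earlier results of these data known. Alternatives were DESeq2 1.42.0, its size factors in edgeR, no low-count filter, genes averaging at least 1 CPM, adjusted p under 0.05, the 22-library fit, limma 3.58.1 (voom with quality weights) and each library left out in turn. Counts were simulated with the spread that edgeR fitted to genes of like level in medium P. There edgeR recovered 52% of genes with a true log2 fold change of 2 and 8% of those with 1, and called 1 unchanged gene. DESeq2 recovered 60% and 12% and called 21 unchanged genes. For medium minus low P, simulated alike, edgeR recovered 16% and 0%, and 2 of its 18 calls were unchanged genes. DESeq2 recovered 28% and 1% there and called 22 unchanged genes. The simulations held no spread particular to a gene and no library that departed as a whole, so these rates need not hold for the data.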

Additional observations from a re-analysis of the deposited data

Results flagged for a closer look

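The phf1 effect differed between medium and low P by the edgeR test of the difference itself in 2 genes. For NIT2 the difference was 4.23 on the log2 scale (SE 0.60, edgeR adjusted p = 0.0357, range over all alternatives 4.68e-08 to 0.222). In medium P all 3 phf1 libraries lay above the 3 Col-0 libraries, and in low P all 3 lay below. For HOL1 the difference was 1.72 on the log2 scale (SE 0.27, edgeR adjusted p = 0.0564, range over all alternatives 4.68e-08 to 0.249), with phf1 above Col-0 in every medium P library and overlap in low P. The adjusted p stayed under 0.1 with 1 of the 12 libraries left out in 6 fits for NIT2 and in 3 for HOL1.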

How the results depend on the processing

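In medium P, DESeq2 called 364 genes and the 22-library edgeR fit 7, where the main test, edgeR with size factors of DESeq2, without the count filter, with the filter at a mean of 1 CPM or with the threshold of 0.05, and limma-voom called 0. Leaving out 1 library gave between 0 and 331 called genes, the highest without Col-0 library C. For medium minus low P, where the main fit called 2, DESeq2 called 44, edgeR without the filter 1 and at the threshold of 0.05 also 1, and leaving out 1 library gave 0 to 372. The low and high P libraries were left out after the data had been seen. For medium minus high P, DESeq2 called 3 and leaving out 1 library gave 0 to 8. The causes were not tested. Of 1090 results for 82 single genes under the alternatives, 980 kept their direction and their side of the threshold, 89 passed it in addition, 17 no longer passed it and 4 turned their direction. Those were PHT1;4, whose log2 fold change ran from -1.01 to 0.69 with 1 library left out (-0.22 with all), and PR2, which ran from -10.09 to 1.14 (-8.52 with all). No paired analysis was possible because the columns carry no replicate numbers, and the plots of the labels do not match in full between the genotypes. With 3 libraries per group the depth of 2821675 to 7252956 counts left genes under about 10 counts untested.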
